A study of Homo sapiens with 3 samples.

Results

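The genes described here encode cyclins and cyclin-dependent kinases (CDKs). They were chosen by symbol, as CCN followed by a letter from A to L, T or Y with an optional digit, or CDK followed by a number, among protein-coding genes. Of the 45 such genes annotated in RefSeq, 40 were listed in the deposited table, out of 12220 protein-coding and 17201 listed genes in all. They comprised 21 of 24 cyclin genes and 19 of 21 CDK genes. The table holds counts of RNA recovered with CTCF, a zinc-finger protein that binds DNA and organises chromatin loops, in U2OS, a human osteosarcoma cell line. It comes from PAR-CLIP, in which cells take up 4-thiouridine, ultraviolet light crosslinks the labelled RNA to proteins that touch it, and the RNA that stays on the precipitated protein is sequenced. The 4-thiouridine pulse was 400 µM over 16 to 24 h, the light was at 365 nm (400 mJ/cm2), and the antibody was applied to lysates of nuclei. The table is a merge of 2 biological replicates, for which separate lots of a single CTCF antibody were used. It has 1 value per gene, with no replicate error and no control precipitation to set it against, so no test was made and no value says how recovery compares with the amount of each RNA in the nucleus.

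A CDK is a protein kinase that is inactive until a cyclin binds it. The family is best known for driving the cell cycle: D cyclins with CDK4 and CDK6 act in G1, E and A cyclins with CDK2 at the start of and during S phase, and B cyclins with CDK1 in mitosis. A second branch acts in transcription, where CDK7, CDK8, CDK9, CDK12 and CDK13 with their cyclins phosphorylate RNA polymerase II or its cofactors, and CDK11 with the L cyclins is linked to splicing. Further members, such as the PCTAIRE and PFTAIRE kinases and cyclin Y, work at membranes or in the cytoplasm.

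Counts summed to 1322047 over all listed genes, with a lowest listed count of 6. Whether a count stands for a read, a deduplicated read or a position is not given in the sources, so it is called a count or, where overlap or alignment is discussed, a read without settling which. Overlapping genes can hold the same reads, so this sum is not a library size. Of 10 genes known from bone-forming and mesenchymal cells, 7 were listed, with FN1 at 1277, CD44 at 632, COL1A1 at 602, SPARC at 260, RUNX2 at 164, VIM at 67 and the bone phosphatase ALPL at 8 counts. Of all annotated protein-coding genes, 60.6% were listed. SP7, COL1A2 and TWIST1, the other 3, were not listed.

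Cyclin and CDK genes were listed more often than protein-coding genes in general, and most stood above genes of similar length. The 40 listed genes are 88.9% of the 45 annotated, against 60.6% of all annotated protein-coding genes that could be paired with an identifier. Their counts ran from 13 to 843 with a median of 67, against a median of 43 for all listed protein-coding genes. A count of 100 or more was reached by 16 of the 40 (40.0%), against 26.1% of all listed protein-coding genes. The 95% interval of the 40.0%, 24.9 to 56.7% with the 40 genes treated as independent draws, includes 26.1%. The median interval was 16.8 kb for cyclin and CDK genes and 30.1 kb for all listed protein-coding genes, so the cyclin and CDK intervals were the shorter ones. Together the 40 genes held 5333 counts, or 0.403% of the sum (95% Clopper-Pearson interval 0.393 to 0.414%, counting error only).

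Because longer intervals hold more counts, each gene was also placed among protein-coding genes of similar length. All 12220 listed protein-coding genes were divided by interval length into 50 groups of 244 or 245, and a gene's percentile is its rank by count within the group on a scale of 0 to 100, with tied genes at their mean rank. Of the 40 cyclin and CDK genes, 34 (85.0%) lay above the median count of their length group, against 49.4% of all listed protein-coding genes. The top 25% of the length group held 23 of the 40 (57.5%), against 25.2% in general. The median percentile was 77.0, with a range of 25.7 to 98.4, and no gene (0) lay below the 25th percentile. RNA abundance in these cells was not analysed here, and its part in these positions was not tested.

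**Figure D1:**
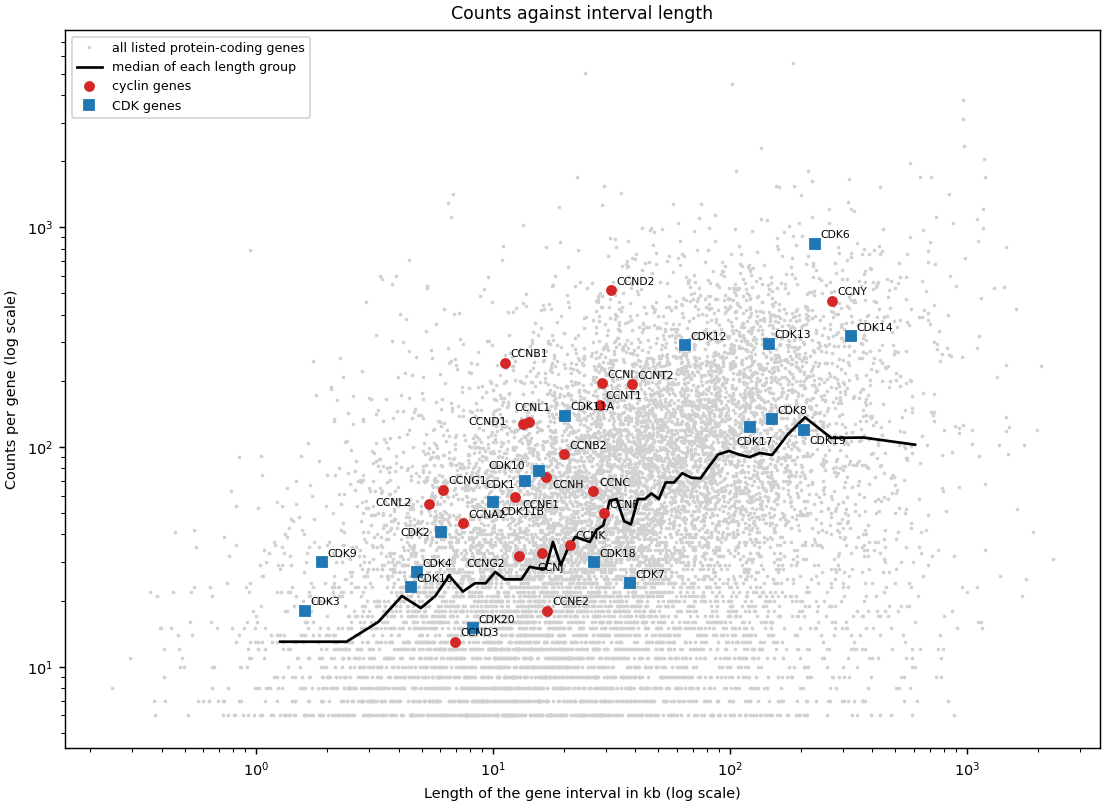
Counts per gene (vertical, log scale) against the length of the gene interval in kb (horizontal, log scale) for 21 cyclin genes (red circles), 19 CDK genes (blue squares) and all 12220 listed protein-coding genes (grey), with the median of each of the 50 length groups as a black line. Of the 40 marked genes, 34 lie above the median of their length group, with CDK6 highest at 843 counts.

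Counts followed length among these genes too. Count and interval length had a Spearman's rho of 0.667 over the 40 genes and 0.434 over all listed protein-coding genes, which share 1 merged library and are not independent replicates. The 10 genes with intervals under 10 kb had counts of 13 to 64, and the 7 over 100 kb (CDK6, CDK8, CDK13, CDK14, CDK17, CDK19 and CCNY) had 120 to 843. Per kb the order was the reverse. The short genes had a median of 6.41 counts per kb, against 4.35 for all listed protein-coding genes under 10 kb, and the long genes had a median of 1.01, against 0.554 for all listed protein-coding genes over 100 kb. Levels of different genes are therefore compared below per kb or by percentile, with the count given first.

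On the scale of counts per kb, the highest were CCNB1 at 21.5, CCND2 at 16.3 and CDK9 at 15.8, and the lowest were CDK7 at 0.631 and CDK19 at 0.584. Counts per kb refer to the intervals of the table. Whether they span the whole gene was not checked here for any gene, regulators included. All values per kb, percentiles and ratios therefore hold for these intervals only. Among the short ones are those of CDK3, CDK9, CDK16 and CDK11B (1.61 to 10.0 kb), CCNL2 (5.39 kb) and CCND3 (6.92 kb). The order between close neighbours is not resolved. Of the 39 pairs of genes next to each other in this order, 38 had overlapping 95% Poisson intervals. All intervals for counts and ratios here cover counting error only and assume that counts are independent. If some counts are PCR copies of each other, the intervals are too narrow.

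**Figure D2:**
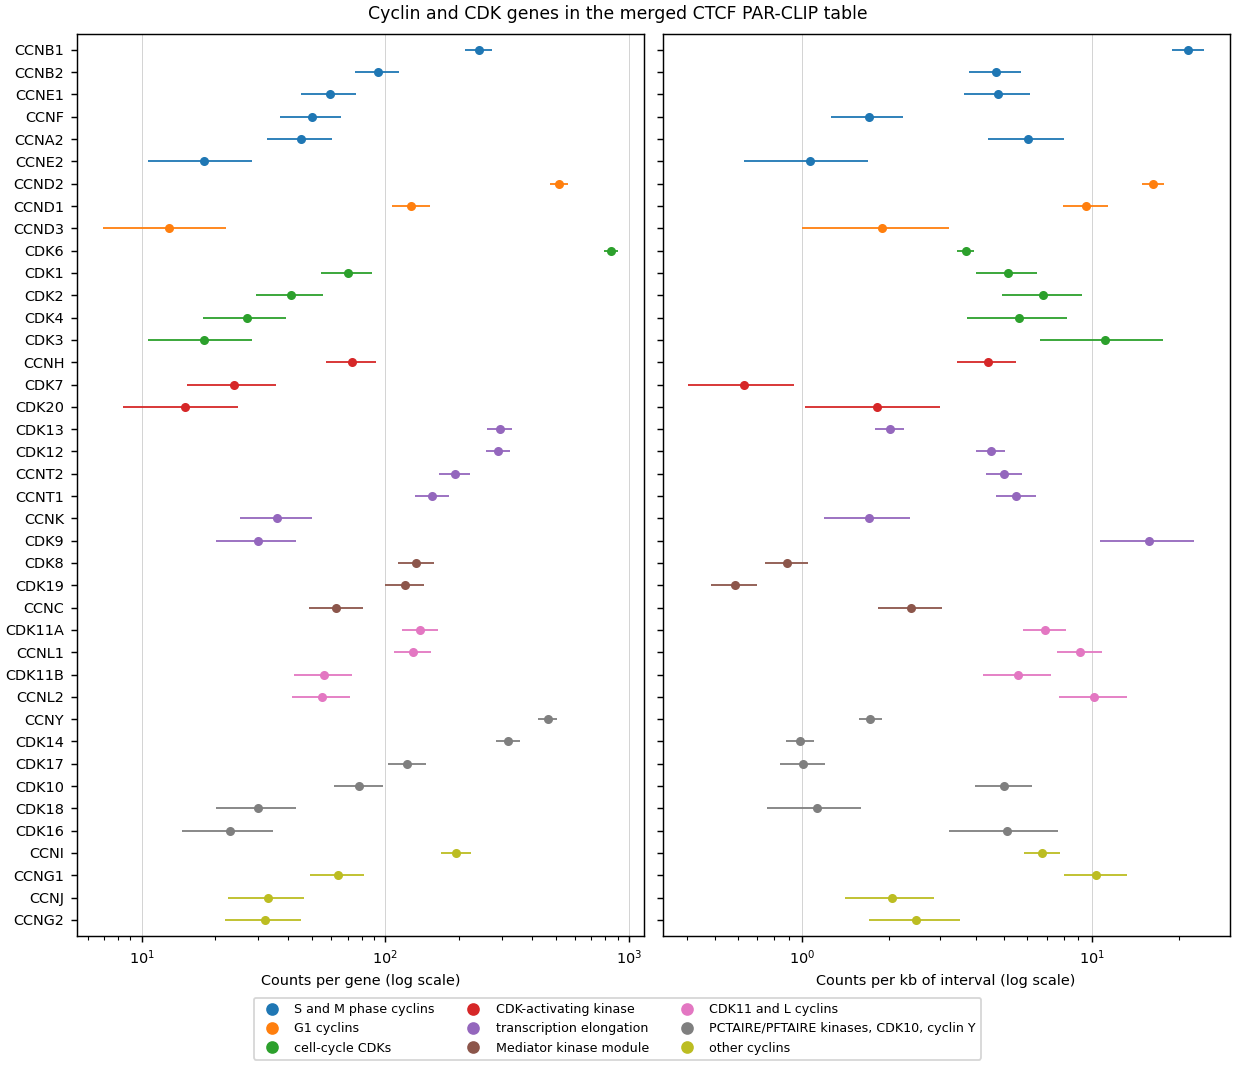
Counts per gene (left) and counts per kb of gene interval (right), both on log scales, for the 40 listed cyclin and CDK genes, ordered by role and within a role by count. Points are the values of the merged table and bars are 95% Poisson intervals; CDK6 has the highest count (843) and CCNB1 the highest count per kb (21.5).

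The G1 genes held both ends of the range. CDK6, a kinase partner of the D cyclins, had 843 counts (95% Poisson interval 787 to 902) over 229 kb of chromosome 7 (hg19, 92234235 to 92463231), which no other listed gene overlaps. This count was the 83rd highest of all listed genes and made up 15.8% of the counts of the 40 genes (14.8 to 16.8%). It was 6.18 times the median of the CDK6 length group, at percentile 97.5. CDK4, its close relative, had 27 counts (17.8 to 39.3) over 4.79 kb of chromosome 12, at percentile 65.8. Per kb CDK6 did not exceed CDK4: it had 3.68 counts per kb and CDK4 5.63, a ratio of 0.654 (95% interval 0.446 to 0.998).

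Of the D cyclins, which link growth signals to these kinases, CCND2 and CCND1 stood near the top of their length groups and CCND3 in the lower part. CCND2 had 516 counts (472 to 563) over 31.6 kb of chromosome 12 (4382938 to 4414516), at percentile 98.4 and 9.05 times the median of its length group. CCND1 had 128 (107 to 152) over 13.4 kb of chromosome 11 (69455855 to 69469242), at percentile 95.1. CCND3 had 13 (6.92 to 22.2) over 6.92 kb of chromosome 6 (41902671 to 41909586), the lowest count of all 40 genes, at percentile 25.7. The spread among these 3 genes exceeds the counting error of independent counts on the per-kb scale as well. Per kb, CCND2 was 1.71 times CCND1 (1.41 to 2.09) and 8.69 times CCND3 (5.04 to 16.4). Antisense genes overlap the start of the CCND2 interval over at most 2.41 kb and had 9 and 26 counts in all, far below the 516 of CCND2. LTO1, a gene with 22 counts, overlaps CCND1 over 1.40 kb.

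Among the cyclins of S phase and mitosis, CCNB1, the main mitotic cyclin, stood highest. It had 242 counts (212 to 274) over 11.2 kb of chromosome 5 (68462837 to 68474072), 9.68 times the median of its length group, at percentile 98.4. Its relative CCNB2 had 93 (75.1 to 114) over 20.0 kb, at percentile 86.8, and CCNB1 exceeded it 4.62-fold per kb (3.63 to 5.94). CCNE1, which acts at the entry to S phase, had 59 counts (44.9 to 76.1) at percentile 80.9. CCNE2, the other E cyclin, had 18 (10.7 to 28.4) over 16.9 kb of chromosome 8 (95891998 to 95908906), at percentile 30.0. Per kb, CCNE1 was 4.47 times CCNE2 (2.60 to 8.05). CCNA2, the A cyclin of dividing cells, had 45 counts at percentile 76.6. CCNF, a cyclin that serves a ubiquitin ligase and not a CDK, had 50 at percentile 54.3. The germline cyclin CCNA1 and CCNB3, a meiotic cyclin, were not listed. Of the 6 listed genes of this group, 5 lay above their length group's median (49.4% in general). Another listed gene overlaps 4 of the 6 (34.7% in general). NDUFAF6, a mitochondrial assembly factor gene with 88 counts, overlaps CCNE2 over 0.912 kb, and EXOSC9, an exosome subunit gene with 68, overlaps CCNA2 over 0.466 kb. Non-coding genes without a symbol overlap CCNB2 over 4.01 kb (10 counts) and CCNF over 2.60 kb (22 counts), so up to that many of their counts may be shared.

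The kinases of the same phases had modest counts over short intervals. CDK1, the mitotic kinase, had 70 counts (54.6 to 88.4) over 13.6 kb of chromosome 10 (62538089 to 62551727), at percentile 85.2. CDK2 had 41 (29.4 to 55.6) over 6.02 kb of chromosome 12, at percentile 72.5. An antisense gene with 26 counts lies wholly inside the CDK2 interval, so CDK2's own share is uncertain. CDK3 had 18 (10.7 to 28.4) over 1.61 kb of chromosome 17 (73996987 to 73998599), at percentile 64.8. Its interval lies inside that of TEN1-CDK3, a read-through transcript of CDK3 and its neighbour with 38 counts, so the 18 counts cannot be assigned to CDK3. All 5 genes of the group with CDK4 and CDK6 lay above the median of their length group (49.4% in general).

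Kinases and cyclins of transcription elongation were high as a group, all 6 of 6 above their length group's median (49.4% in general), with a median percentile of 85.1. CDK12 and CDK13, which phosphorylate the tail of RNA polymerase II, had nearly equal counts. CDK13 had 295 (262 to 331) over 147 kb of chromosome 7 (39989636 to 40136733), at percentile 83.5. CDK12 had 290 (258 to 325) over 64.7 kb of chromosome 17 (37617764 to 37682416), at percentile 93.4. Per kb, CDK12 was 2.24 times CDK13 (1.90 to 2.64). CCNK, the cyclin of both, had only 36 counts (25.2 to 49.8) at percentile 51.6, next to the middle of its length group. CDK12 exceeded CCNK 2.64-fold per kb (1.86 to 3.85).

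P-TEFb, the complex that releases paused RNA polymerase II, pairs CDK9 with a T cyclin. CDK9 had 30 counts (20.2 to 42.8) over an interval of 1.90 kb on chromosome 9 (130547958 to 130549854), at percentile 76.5 and 15.8 per kb. Its cyclins had higher counts over longer intervals. CCNT2 had 193 (167 to 222) over 38.6 kb of chromosome 2 (135675805 to 135714413), at percentile 89.5. CCNT1 had 156 (132 to 182) over 28.4 kb of chromosome 12 (49082247 to 49110681), at percentile 86.6. The T cyclins were not separated by counting error: CCNT1 had 5.49 counts per kb and CCNT2 5.00, a ratio of 1.10 (0.883 to 1.36). CCNT2-AS1, an antisense gene with 12 counts, overlaps CCNT2 over 0.436 kb.

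CDK11 and the L cyclins, which associate with splicing factors, were also high. All 4 of 4 lay above the median of their length group (49.4% in general), with percentiles of 75.6 to 89.7. CCNL1 had 130 counts (109 to 154) over 14.3 kb of chromosome 3 (156864297 to 156878549), and CCNL2 had 55 (41.4 to 71.6) over 5.39 kb of chromosome 1 (1321091 to 1326476). Per kb they were alike within counting error, with CCNL1 at 9.12 and CCNL2 at 10.2 (ratio 0.893, 0.647 to 1.25). CDK11A had 139 counts (117 to 164) over 20.1 kb of chromosome 1 (1634169 to 1654270), and CDK11B had 56 (42.3 to 72.7) over 10.0 kb (1570603 to 1580623). CDK11A and CDK11B are near-identical neighbours, so the authors' alignment could have divided their reads either way. CDK11A held 71.3% of the pair's counts (64.4 to 77.5%), over the longer interval. Per kb, CDK11A had 6.91 (5.81 to 8.16) and CDK11B 5.59 (4.22 to 7.26), and these intervals overlap. A processed transcript with 149 counts and no symbol in the name table shares 20.1 kb with CDK11A, nearly its whole interval. The 139 counts therefore cannot be assigned to CDK11A.

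The CDK11 copies are also alike in the 250 bases before their starts. The sequences are from RefSeq on GRCh38.p14, both from the minus strand of chromosome 1 (chr1:1724358-1724607 for CDK11A and chr1:1659005-1659254 for CDK11B). Capitals mark the longest run of bases that both share.
CDK11A: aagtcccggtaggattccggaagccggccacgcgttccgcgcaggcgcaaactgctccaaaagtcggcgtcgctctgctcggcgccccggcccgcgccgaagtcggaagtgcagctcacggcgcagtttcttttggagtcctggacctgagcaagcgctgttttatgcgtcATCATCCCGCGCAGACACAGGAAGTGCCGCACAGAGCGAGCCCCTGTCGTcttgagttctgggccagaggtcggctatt
CDK11B: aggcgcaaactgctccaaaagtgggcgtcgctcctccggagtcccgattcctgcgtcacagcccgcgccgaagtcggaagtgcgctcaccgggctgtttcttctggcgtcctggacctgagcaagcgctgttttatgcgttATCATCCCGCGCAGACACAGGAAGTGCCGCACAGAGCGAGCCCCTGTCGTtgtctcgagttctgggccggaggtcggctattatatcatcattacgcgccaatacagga
Over 206 aligned bases, 193 were identical (93.7%), and the shared run was 50 bases long. It begins 79 bases before the start of CDK11A and 109 bases before that of CDK11B. These windows lie before the starts, so they show how alike these stretches are and not the RNA that was counted. How reads were divided between the copies was not tested.

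The kinase module of Mediator, which bridges transcription factors and RNA polymerase II, had intermediate positions. CDK8 had 134 counts (112 to 159) over 151 kb of chromosome 13 (26828276 to 26979375), at percentile 59.7, and its relative CDK19 had 120 (99.5 to 143) over 205 kb of chromosome 6 (110931181 to 111136519), at percentile 46.5. Both exceeded 100 counts, but per kb they were among the 3 lowest of the 40, with CDK8 at 0.887 and CDK19 at 0.584 (ratio 1.52, 1.18 to 1.96). CCNC, the cyclin of both, had 63 (48.4 to 80.6) over 26.6 kb of chromosome 6 (99990256 to 100016849), at percentile 64.8. None (0) of the 3 reached the top 25% of its length group, against 25.2% in general, but 3 genes are too few to tell these shares apart.

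In the CDK-activating kinase, which phosphorylates other CDKs and RNA polymerase II as part of TFIIH, the kinase was low and its cyclin high. CDK7 had 24 counts (15.4 to 35.7) over 38.1 kb of chromosome 5 (68530668 to 68568731), at percentile 28.4, and CCNH had 73 (57.2 to 91.8) over 16.7 kb of the same chromosome (86687311 to 86703997), at percentile 80.9. Per kb, CDK7 was 0.144 times CCNH (0.0869 to 0.231), the widest gap of the 9 pairs of kinase and cyclin compared. CDK20, a kinase also proposed to activate CDKs, had 15 counts (8.40 to 24.7) over 8.25 kb of chromosome 9 (90581356 to 90589600), at percentile 33.1. No other listed gene overlaps these 3 genes.

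CCNY, the gene of the membrane-bound cyclin Y, and CDK14 had high counts over long intervals. CCNY had 464 counts (423 to 508) over 270 kb of chromosome 10 (35535953 to 35805503), at percentile 93.4. CDK14, its PFTAIRE kinase partner in Wnt signalling, had 319 (285 to 356) over 324 kb of chromosome 7 (90095738 to 90419943), at percentile 77.4. Per kb, CDK14 was 0.572 times CCNY (0.494 to 0.661). The PCTAIRE kinases were near the middle of their length groups. CDK17 had 123 counts (102 to 147) over 122 kb of chromosome 12 (96672039 to 96794338), at percentile 59.0. CDK16 had 23 (14.6 to 34.5) over 4.52 kb of chromosome X (47077259 to 47081779), at percentile 54.5, and CDK18 had 30 over 26.8 kb, at percentile 39.9. CDK10, a kinase that pairs with cyclin M, had 78 (61.7 to 97.3) over 15.6 kb, at percentile 85.2. PTTG1IP2, annotated as a pseudogene with 6 counts, lies inside the CDK14 interval, and SPATA2L with 7 counts overlaps CDK10 by 0.011 kb. CDK5, a kinase best known from neurons, and CDK15 were not listed.

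Of the remaining cyclins, CCNI and CCNG1 stood highest. CCNI had 195 counts (169 to 224) over 28.8 kb of chromosome 4 (77968311 to 77997158), at percentile 90.9. CCNG1, a target of p53, had 64 (49.3 to 81.7) over 6.16 kb of chromosome 5, at percentile 80.5. A protein-coding gene with 80 counts and no symbol shares 4.29 kb with CCNG1, or 69.6% of its interval, so its reads cannot be assigned. CCNG2 had 32 (21.9 to 45.2) over 12.9 kb of chromosome 4 (78078304 to 78091212), at percentile 58.6. CCNJ had 33 counts at percentile 54.7, but its whole interval lies inside that of ENTPD1-AS1, an antisense gene with 67 counts. CCNI2 was not listed.

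Overlap with another listed gene affected 14 of the 40 genes (35.0%), against 34.7% of all listed protein-coding genes, so the shares were close. The 26 genes free of overlap had a median count of 66.5 and the 14 others 71. Among the 26, 21 (80.8%) lay above the median of their length group, against 46.2% of all listed protein-coding genes free of overlap. With length groups re-made from genes free of overlap, 22 of the 26 (84.6%) did.

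Related genes and partners were compared in 20 pairs, as ratios of counts per kb with exact 95% intervals for counting error. These intervals assume independent counts. The pairs were chosen with the counts known. Of 11 pairs of related genes, 9 had intervals that exclude a ratio of 1, the exceptions being the T cyclins and the L cyclins. The 11 include every pairing of the D cyclins. They leave out CDK11A and CDK11B, whose Poisson intervals per kb overlap, so the tally holds for the chosen pairs only. In the 9 pairs of a kinase and its cyclin, the cyclin was higher per kb in 6 and the kinase in 2 (CDK9 over CCNT1 and CDK12 over CCNK). For CDK2 and CCNE1 the ratio was 1.43 (0.938 to 2.17). CDK1 had 0.238 times the counts per kb of CCNB1 (0.180 to 0.312), and CDK6 had 0.225 times those of CCND2 (0.202 to 0.252). Since counts per kb fall with interval length (Spearman's rho −0.611 over the 40 genes), the pairs of unequal length favour the shorter gene. By percentile for length, the cyclin was higher in 8 of the 9 pairs, CDK12 over CCNK being the exception. These tallies, too, hold for the chosen pairs only. Among pairings left out, the kinase was higher for CDK13 and CCNK (83.5 against 51.6) and for CDK2 and CCNE2 (72.5 against 30.0). The cyclin was higher for CDK9 and CCNT2 (76.5 against 89.5). CDK9 stood below CCNT1 (76.5 against 86.6) and CDK2 below CCNE1 (72.5 against 80.9), while CDK6 and CCND2 were almost level (97.5 against 98.4).

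**Figure D3:**
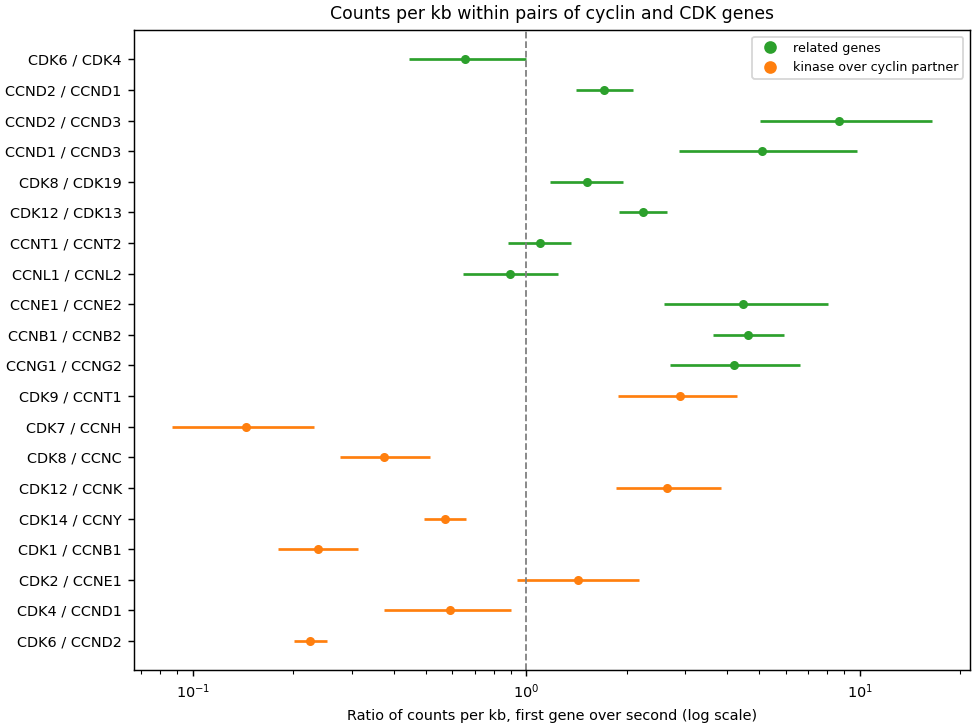
Ratio of counts per kb (horizontal, log scale), first gene over second, for 11 pairs of related genes (green) and 9 pairs of a kinase and its cyclin (orange), with exact 95% intervals for counting error. The interval of CDK7 over CCNH (0.0869 to 0.231) lies lowest and that of CCND2 over CCND3 (5.04 to 16.4) highest.

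The regulators of cyclins and CDKs stood lower than the cyclins and CDKs themselves, but above protein-coding genes in general. Of 71 genes in 6 lists, 61 were listed, and 40 of these (65.6%) lay above the median of their length group, with a median percentile of 62.8, against 77.0 for the 40 cyclin and CDK genes. In general, 60.6% of protein-coding genes were listed and 49.4% of those listed lay above that median. The lists differed. Partners of the transcriptional CDKs were all listed (12 of 12), with 9 above the median of their length group and a median percentile of 79.0. MED13, a Mediator subunit of the CDK8 module, had 610 counts, and AFF4, a scaffold that recruits P-TEFb, had 552. MED12L, a relative of MED12, was lowest with 6 counts. HEXIM1, an inhibitor of P-TEFb, had 28 at percentile 67.1, and its relative HEXIM2 had 7 at percentile 7.20. Of the 61 listed regulators, 20 (32.8%) overlap another listed gene, against 34.7% in general, and may share counts with it. HEXIM1, HEXIM2, CDC27, AMBRA1 and E2F3 are among these.

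Cyclin ubiquitin ligases, which destroy cyclins on schedule, had 20 of 21 genes listed (60.6% in general). Of these 20, 15 lay above the median of their length group (49.4% in general). FBXW7, the receptor for cyclin E, had 380 counts, CDC27, a subunit of the anaphase-promoting complex, 292, and AMBRA1, the receptor for D cyclins, 228. ANAPC5 was lowest with 8 counts over 2.15 kb. CDC20, an activator of the anaphase-promoting complex, had 55 at percentile 84.4.

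Of the 6 lists, the inhibitors and the RB pathway had the lowest median percentiles (44.1 and 38.5). Of 8 CDK inhibitor genes 4 were listed, 2 of them above the median of their length group, which is close to the 60.6% and 49.4% of protein-coding genes in general. CDKN1A (p21) and CDKN3 had 41 counts each, and CDKN1B (p27) and CDKN2C had 16 each. CDKN1C, CDKN2A, CDKN2B and CDKN2D were not listed, and no source used here says whether they were counted. All 13 pocket protein, E2F and DP genes were listed, with 5 above the median of their length group and a median percentile of 38.5. E2F7, a repressor of the family, had 246 counts, TFDP1, a dimer partner of E2Fs, 177, and E2F3 159. RB1, the retinoblastoma gene, had 22 over an interval of 57.0 kb, at percentile 20.2. RBL2, a relative of RB1, had 6 at percentile 1.85. E2F4, which works with RBL2 in resting cells, had 146 counts over 6.75 kb, at percentile 94.7.

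The list of phosphatases and kinases that switch CDK1 and CDK2, with the CKS adaptors, had 6 of 8 genes listed (60.6% in general). Of these 6, 4 lay above the median of their length group (49.4% in general). CDC25A, an activating phosphatase, had 70 counts, WEE1, an inhibitory kinase, 64, and CDC25B and CKS2 37 each. CKS1B was lowest at 16, and PKMYT1 and WEE2 were not listed. Among CDK5 activators and associated genes 6 of 9 were listed (60.6% in general). Of these 6, 5 lay above the median of their length group (49.4% in general). CDK5RAP2, a centrosome protein, had 416 counts, CDK5RAP1 64, and CDK2AP1 and CABLES2 31 each. CDK5R1, the activator p35 of CDK5, was lowest at 15.

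**Figure D4:**
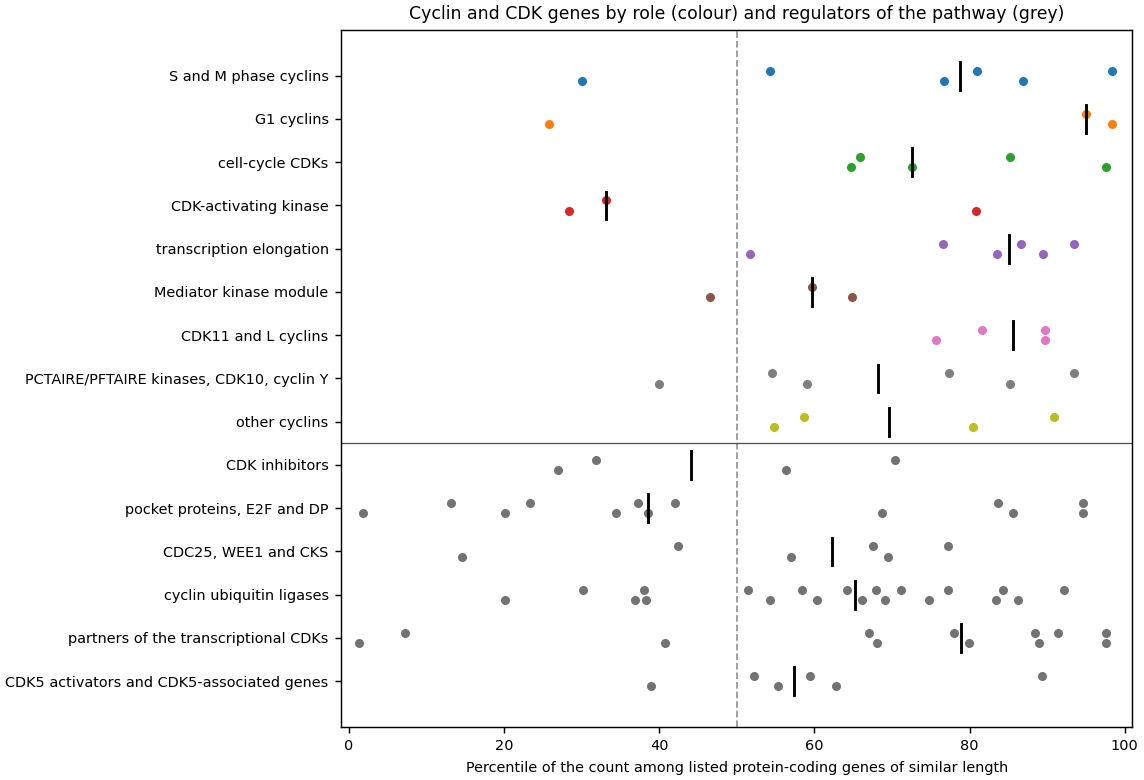
Percentile of each listed gene's count among listed protein-coding genes of similar length (horizontal, 0 to 100), by role for cyclin and CDK genes (upper 9 lines, coloured) and by list for regulators (lower 6 lines, grey). Points are genes, black bars are medians and the dashed line marks the 50th percentile. The medians are highest for G1 cyclins (95.1, 3 genes), CDK11 and L cyclins (85.6, 4 genes) and transcription elongation (85.1, 6 genes). The lowest is that of the CDK-activating kinase group (33.1, 3 genes). This median is the value of CDK20, between CDK7 (28.4) and CCNH (80.9), and the G1 cyclins include CCND3 at 25.7.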

How the data were processed

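PAR-CLIP of CTCF in U2OS cells was described by 3 samples, of which 1, the merge of both replicates, had a processed file used here. The authors deposited whole-number counts per Ensembl gene interval, not scaled for depth or length. What 1 count stands for is not given. Coordinates are in hg19, and Bowtie and bedtools were used, per the submitters' processing notes. For both tools the role and version, and for the counting the use of strand and of multiply mapping reads, are not given in the sources. Intervals are those of the table and need not span a whole gene.

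Symbols came from a list of Ensembl gene names that covered 16520 of the 17201 identifiers. The 247 protein-coding genes without a symbol could not be matched to the rule. RefSeq symbols (GRCh38.p14) gave the annotated family. Percentiles used 50 equal groups of listed protein-coding genes by interval length, giving tied genes their mean rank. Intervals were exact 95% Poisson, Clopper-Pearson or, for ratios, the binomial interval of the pair's counts (scipy 1.17.1, pandas 2.3.3, Python 3.11.15). The scripts were tested on simulated data. Every cyclin and CDK gene was named, listed or absent, with coordinates for those at 100 counts or more and for the highest and lowest of each role group. Of the regulators, the 3 highest and the lowest of each list were named, with other genes chosen after their values were seen; some items are not reported here. The members and lists were chosen with earlier results of these data known. No p-value was computed.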

Additional observations from a re-analysis of the deposited data

How the results depend on the processing

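The share of the 40 genes at 100 counts or more (40.0%) ranged from 36.7 to 42.3% under 5 alternatives. The share above the median of the length group (85.0%) ranged from 75.0 to 84.6% under 5 of 7 alternatives with other genes or another count minimum, or with CCND2 and CDK6 left out. It was 85.0% with 20 length groups and 82.5% by counts per kb. The lowest value, 75.0% (30 of 40), came from a minimum of 10 counts for all genes. The median percentile (77.0) ranged from 72.5, with cyclin-like and CDKL genes added, to 81.8 by counts per kb. All 19 values stayed within 95% intervals around the reported values. These were 24.9 to 56.7% for 100 counts or more and 70.2 to 94.3% for the share above the median. For the median percentile the interval was 64.8 to 85.2. Such intervals treat the 40 genes as independent draws and are wide. The alternatives reuse mostly the same genes and counts, so staying within the intervals cannot show that the results are stable. Leaving out CDK6 and CCND2 was chosen after seeing the data. Leaving out a replicate was not run, since no value per replicate was at hand. No paired analysis was possible because the replicates entered this table already merged. Depth limits genes with counts below about 20, such as CCND3, CDK20, CDK3 and CCNE2.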

Other observations

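Some genes with similar names fall outside the family as chosen. CCNYL2, a pseudogene related to cyclin Y, had 82 counts over 64.1 kb of chromosome 10 (42903616 to 42967688) and overlaps no listed gene, while CCNYL1, a protein-coding relative, had 28 over 42.9 kb. Reads from related copies could have been divided either way by the authors' alignment. CCNJL, a relative of CCNJ, had 111 counts over 60.9 kb. Among CDK-like kinase genes, CDKL3 had 117 counts and CDKL1 had 28. CDKAL1, which encodes a tRNA-modifying enzyme and no kinase, had 406 over 686 kb. CDK13-DT, annotated as antisense, had 6 counts over 2.23 kb that end before the CDK13 interval begins.

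Some family members are neighbours on their chromosome, and some of these pairs differ widely in percentile for their length while others do not. CCNI (percentile 90.9) and CCNG2 (58.6) lie 81.1 kb apart on chromosome 4 with no listed gene (0) between them. CCNB1 (percentile 98.4) and CDK7 (28.4) lie 56.6 kb apart on chromosome 5 with 2 listed genes between them. CDK11B (percentile 75.6) and CDK11A (89.7) lie 53.5 kb apart on chromosome 1 with 1 listed gene between them. CCNL2 (percentile 81.6) lies 244 kb from CDK11B with 6 listed genes between them.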
